A study of Mus musculus with 16 samples.

Results

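Cytochrome oxidase, or complex IV, is the last enzyme of the mitochondrial respiratory chain, and the genes described here are those of its nuclear-encoded subunits and assembly factors together with those of the ATP synthase, or complex V. The members were all genes listed in the deposited table whose name begins with Cox and a digit, or with Atp5, and that reached 1 RPKM (reads scaled to gene length and to the reads of the library) in at least 4 of 16 libraries. Of 44 genes with such names, 41 met the level rule among 23440 listed genes, 24 of 27 for cytochrome oxidase and all 17 for the ATP synthase. Each of the 41 reached 1 RPKM in all 16 libraries. The other 3 were tissue-restricted isoform genes. Cox7b2 was listed at 0 in every library, Cox8c was above 0 in 1 library, at 0.118 RPKM, and Cox6b2 lay between 0.0929 and 1.12 RPKM. By role, the 24 cytochrome oxidase genes were 14 subunit genes, the supercomplex factor Cox7a2l and 9 assembly factors, and the 17 Atp5 genes were 15 subunit genes and 2 that are not core subunits, Atp5s and Atp5sl. RefSeq names these 2 Dmac2l and Dmac2, without Atp5 in the name. They are counted with the ATP synthase genes below only because of their listed names.

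The RNA came from the gastrocnemius, a calf muscle, of male C57Bl6/J mice 20 weeks of age, with 4 mice in each of 4 groups. WT mice and mice that lacked the cytokine interleukin-13 (Il13-/-, here KO) were either untrained or had run on a treadmill daily for 5 weeks. The labels do not say in which cells or from when on Il13 was absent, nor whether KO and WT mice were littermates. Each library came from a mouse with its own identifier.

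Electrons from food reach oxygen through the respiratory complexes, and cytochrome oxidase passes them from cytochrome c to oxygen while it pumps protons across the inner mitochondrial membrane. The ATP synthase lets the protons flow back through a ring of c subunits, and the turning of this ring drives ATP formation in its catalytic head. The core of cytochrome oxidase and part of the ATP synthase membrane sector are encoded by mitochondrial DNA, whose genes were not analysed here, and the remaining subunits by nuclear genes. Several subunits of cytochrome oxidase have a form typical of heart and skeletal muscle and a form found in most tissues. Endurance training is known to raise the mitochondrial content of muscle.

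Recovered from the step sizes of low RPKM values, the total reads of a library ran from 16307025 to 20074677 reads, and the listed genes held 75.6% to 83.5% of them. Il13 had 0 reads in every WT library and 0 to 2 reads in each KO library, which is too few to test the genotype labels. In whole muscle, fewer fibres of a type and less RNA per fibre cannot be told apart. The summed level of 9 slow or oxidative fibre markers, called slow fibre markers below, was 664 to 925 RPKM in untrained WT, 1239 to 1637 in trained WT, 779 to 1369 in untrained KO and 631 to 1403 RPKM in trained KO muscle. Their largest term in every library was Myh2, a myosin of fast oxidative fibres. It was at 356 to 408, 526 to 716, 387 to 504 and 352 to 562 RPKM in the same order. That of 8 fast glycolytic fibre markers was 79011 to 87022, 65630 to 72521, 72473 to 74544 and 66187 to 72321 RPKM in the same order. No marker of either fibre list was at 0 in every library, while Ucp1, which defines brown fat, was. The fast fibre sums did not overlap between untrained and trained mice of either genotype, nor between untrained WT and untrained KO. A pair of libraries stood apart for the members. Replicate 1 of trained WT held the highest of 16 values for 17 of 24 cytochrome oxidase and 12 of 17 Atp5 genes, and replicate 4 of untrained KO the lowest for 11 and 13 of them. In replicate 1 of trained WT the listed genes held 83.5% of the total, against 76.0% to 78.8% in the other trained WT libraries. This share also differed between groups. It was 79.9% to 83.3% in untrained WT, 77.2% to 81.7% in untrained KO and 75.6% to 78.3% in trained KO. Untrained WT and trained KO did not overlap. Many results that move without replicate 1 of trained WT or replicate 4 of untrained KO are given both ways.

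Muscle forms dominated cytochrome oxidase. On the length-scaled RPKM level, averaged over 16 libraries, the subunit genes ranged from 2.10 RPKM for Cox4i2, a form of subunit 4 known from lung, to 967 for Cox6a2, the heart and muscle form of subunit 6a. The 9 assembly factor genes lay between 3.53 RPKM for Cox18, which inserts a core subunit into the membrane, and 73.1 for Cox14, which acts early in core assembly. Cox17, the copper chaperone, was at 69.3 RPKM, and Cox10 and Cox15, which make heme A in successive steps, were at 16.2 and 6.57 RPKM. Cox6a2 had 9122 to 15515 reads per library.

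**Figure D1:**
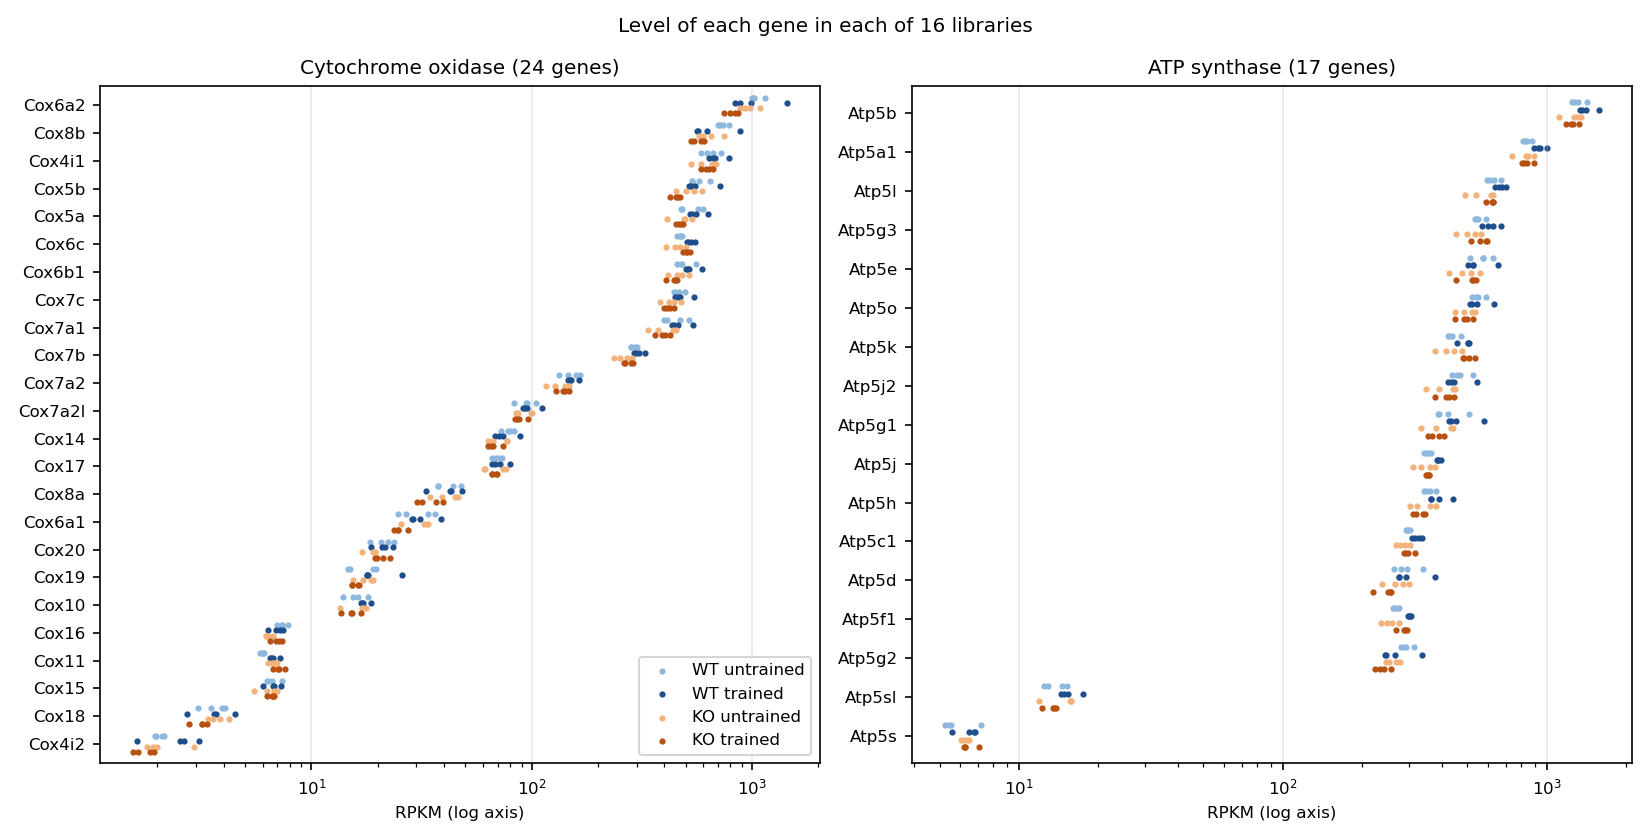
Level in RPKM (log axis) of each of 24 cytochrome oxidase and 17 Atp5 genes, with 1 point for each of 16 libraries, coloured by group. Genes are ordered by their mean, from Cox4i2 at 2.10 to Cox6a2 at 967 RPKM and from Atp5s at 6.23 to Atp5b at 1311 RPKM, and the differences between genes are far larger than those between groups.

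In the subunit 6a pair, Cox6a2 held 96.4% to 97.6% of the summed RPKM of Cox6a1 and Cox6a2 over the 16 libraries. Cox8b, the muscle form of subunit 8, held 93.0% to 95.2% of Cox8a plus Cox8b. Cox7a1, the muscle form of subunit 7a, held 73.4% to 76.7% of Cox7a1 plus Cox7a2. Within subunit 4 the order was the other way round, since Cox4i2 made up 0.237% to 0.478% of the pair and Cox4i1, the form of most tissues, the rest. Between groups these shares overlapped in every pair of groups, except that Cox7a1 took 73.4% to 74.5% in trained KO and 74.8% to 76.7% in trained WT. By library, the less abundant form Cox6a1 was at 24.7, 36.4, 26.9 and 33.95 RPKM in untrained WT, 38.9, 28.8, 31.03 and 28.6 in trained WT, 33.4, 33.9, 32.3 and 25.6 in untrained KO and 24.8, 23.8, 27.4 and 24.8 RPKM in trained KO. Cox8a was at 37.7, 47.9, 37.6 and 44.0 RPKM in untrained WT, 48.5, 43.1, 42.8 and 33.2 in trained WT, 46.3, 39.2, 44.8 and 34.7 in untrained KO and 31.9, 30.1, 39.6 and 36.6 RPKM in trained KO. All 4 trained KO values of Cox6a1 lay below all 4 of trained WT, while the Cox8a groups overlapped. Cox4i2 was at 1.94, 1.97, 2.14 and 2.11 RPKM in untrained WT, 2.53, 2.64, 3.08 and 1.62 in trained WT, 1.91, 1.99, 2.92 and 1.78 in untrained KO and 1.85, 1.63, 1.92 and 1.54 RPKM in trained KO. Its trained and untrained values overlapped in both genotypes, as did KO and WT values at each training state, at a level of 21 to 45 reads per library.

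Promoters of a muscle form and of 2 forms found in most tissues are shown to compare their letters with motifs of known respiratory gene regulators. The sequences are from RefSeq (GRCm38.p6), 120 bases each, read on the minus strand up to the base before the transcript start. Capitals mark letters that match the core of the NRF1 motif, which leaves its middle base free, or the ETS/GABP motif (CCGGAAG), on either strand, within the stretch. Cox8a lies at chr19:7217617-7217736, Cox6a1 at chr5:115348959-115349078 and Cox8b at chr7:140900447-140900566.
Cox8b: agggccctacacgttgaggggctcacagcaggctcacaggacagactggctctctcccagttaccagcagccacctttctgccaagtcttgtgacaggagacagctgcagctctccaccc
Cox8a: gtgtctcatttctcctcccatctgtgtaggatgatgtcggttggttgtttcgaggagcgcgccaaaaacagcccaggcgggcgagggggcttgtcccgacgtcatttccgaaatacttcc
Cox6a1: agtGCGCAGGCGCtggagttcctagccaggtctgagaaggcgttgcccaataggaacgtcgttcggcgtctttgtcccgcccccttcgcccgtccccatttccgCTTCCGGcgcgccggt
In Cox6a1 an NRF1 core match and an ETS match are in capitals, and in the stretches of Cox8a and Cox8b there is none, although the 300-base window of Cox8a holds 2 ETS matches that lie beyond the stretch or cross its end. RefSeq windows of 300 bases, from 250 before to 50 after the start, were matched for 18 of the 24 cytochrome oxidase genes. The windows of Cox4i2, Cox18, Cox6a2, Cox4i1, Cox6c and Cox17 were not used here. Counted on both strands, CCGGAAG was in 44.4% of the 18 windows and in 9.09% of 26991 windows of other genes. The full palindromic NRF1 motif, which the core includes, was in 5.56% against 0.967%, the core in 5.56% against 4.77%, the YY1 motif AAGATGGC in 11.1% against 2.86%, the Sp1 motif GGGCGG in 50% against 35.9% and the ERR motif TCAAGGTCA in 0% against 0.404%. A match describes letters only, and no binding was measured.

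The first comparison asked how cytochrome oxidase transcripts differ after training in WT muscle. Most stood slightly higher, and none passed the test. Of 24 genes, 17 had a positive log2 difference, against 52.4% of all genes tested. The median was 0.06 against 0.01 for all genes, and 0.15 against 0.10 after TPM rescaling. Differences ran from -0.18 for Cox8b to 0.23 for Cox4i2. With limma on log2(RPKM + 0.1) and Benjamini-Hochberg adjustment over 10171 genes, 0 of 24 were called at an adjusted p under 0.05, where 0.187% of all genes were called. At an unadjusted p under 0.05 there were 2 of 24, both higher, where 6.11% of all genes were, and voom on recovered reads also called 0. Without replicate 1 of trained WT the median was -0.01 against -0.03 for all genes, so the direction of the set rested on that library. The summed slow fibre markers were higher in trained than in untrained WT (8 of 9 markers without overlap) and the summed fast fibre markers lower (6 of 8), both without overlap. The sum of 6 tendon markers was 186 to 241 RPKM in trained and 113 to 142 in untrained WT, also without overlap. The part of these cells in the WT training results of either enzyme was not tested.

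The 2 genes were Cox6c and Cox11. Cox6c, a small membrane subunit, was at 469, 457, 482 and 473 RPKM in untrained WT, 516, 554, 508 and 532 in trained WT, 470.2, 447, 504 and 407 in untrained KO and 501, 485, 524 and 509 RPKM in trained KO. All 4 trained WT libraries lay above all 4 untrained WT libraries, and in KO the groups overlapped only through replicate 3 of the untrained mice. Its difference was 0.16 (SE 0.06, adjusted p = 0.265) in WT and 0.15 (SE 0.06, adjusted p = 0.296) in KO (limma). Cox11, which delivers copper to the core, was at 6.06, 6.01, 5.97 and 5.85 RPKM in untrained WT, 6.68, 7.20, 6.53 and 6.48 in trained WT, 6.35, 6.61, 6.98 and 6.77 in untrained KO and 6.70, 7.03, 7.12 and 7.56 RPKM in trained KO. Trained WT again lay wholly above untrained WT, and untrained KO did so too. Its training difference was 0.17 (SE 0.06, adjusted p = 0.258) in WT and 0.09 (SE 0.06, adjusted p = 0.502) in KO. These 2 were the only cytochrome oxidase genes whose WT groups did not overlap, 2 of 24 against 3.76% of all genes that were higher without overlap, and 0 were lower, against 2.62%. The exons of Cox6c and Cox11 overlap exons of Vps13b and Tom1l1 on the other strand, which were at 1.48 to 1.93 and 3.97 to 5.17 RPKM, and whether counting used strand is not given in the sources used here.

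Cox8b had the lowest training difference of the set in WT. It was at 704, 788, 741 and 715 RPKM in untrained WT, 887, 629, 565 and 571 in trained WT, 652, 599, 747 and 576 in untrained KO and 604, 528, 588 and 547 RPKM in trained KO. Without replicate 1, the other 3 trained WT libraries lay below all untrained WT libraries. The difference in WT was -0.18 (SE 0.12, adjusted p = 0.594), and without that replicate it was -0.33 with a limma adjusted p of 0.0424, the single cytochrome oxidase call for training in WT in that setting, where 2.67% of all genes were called. Cox6a2 was at 1018, 1153, 1022 and 1002 RPKM in untrained WT, 1444, 991, 839.6 and 885 in trained WT, 977, 929.8, 1088 and 880.2 in untrained KO and 868, 746, 841 and 795 RPKM in trained KO. Here too replicate 1 of trained WT was the highest of 16 and the other 3 were below every untrained WT library. Without that replicate, Cox8b and Cox6a2 were the only 2 of 24 genes lower without overlap, against 12.1% of all genes. Cox4i1 was at 590.1, 725, 629 and 667 RPKM in untrained WT, 791, 663, 642 and 681 in trained WT, 658, 591, 690.1 and 528 in untrained KO and 663, 590.0, 636 and 619 RPKM in trained KO. Its trained and untrained values overlapped in both genotypes. Averaged over both genotypes, Cox8b differed by -0.18 (SE 0.08, adjusted p = 0.265) and Cox11 by 0.13 (SE 0.04, adjusted p = 0.134) (limma). Without replicate 1 of trained WT, a fit that called 10.3% of all genes for this average, Cox8b, Cox6a2 and Cox6c were called at -0.25, -0.23 and 0.16 (limma adjusted p of 0.0115, 0.0165 and 0.0265).

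In KO muscle, training differences of cytochrome oxidase were split. Of 24 genes, 8 had a positive difference, against 35.1% of all genes, and the median was -0.05 against -0.06 for all genes. It became 0.02 against 0.01 after rescaling to TPM, 0.009 against 0.002 with equal medians and 0.001 against -0.001 with quantile normalization. With limma 0 of 24 were called, as were 0% of all genes, and voom called 0. At an unadjusted p under 0.05, 1 gene was higher (Cox6c) and 1 lower (Cox6a1), where 4.85% of all genes were higher and 8.9% lower. Trained and untrained KO libraries did not overlap for Cox20, a chaperone of a core subunit, which was higher, and for Cox18 and Cox6a2, which were lower. That is 1 and 2 of 24 genes against 4% and 5.43% of all genes. The difference of Cox6a1 was -0.30 (SE 0.12, adjusted p = 0.301), that of Cox8a -0.25 (SE 0.12, adjusted p = 0.378), and that of Cox6a2 -0.25, SE 0.13 (limma). Without replicate 4 of untrained KO the median was -0.11 and 8 genes were lower without overlap, against 16.3% of all genes. The summed fast fibre markers were lower in trained than in untrained KO, without overlap, as were 2 of the 8 markers singly. So were the sums of 4 smooth muscle markers (3 of them singly) and of 5 Schwann cell and nerve markers (3 singly). All 9 slow fibre markers had a lower mean, with overlap. The part of these cells in the KO training results of either enzyme was not tested.

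The difference between the 2 training responses, KO minus WT, was negative for 20 of 24 genes, against 61.6% of all genes. Its median was -0.08 against -0.05, and -0.02 against 0.01 both with equal medians and under quantile normalization. In the limma fit 0 of 24 were called, as were 0% of all genes, and 4 had an unadjusted p under 0.05, against 8.4% of all genes, while voom called 0. The 3 smallest p-values belonged to Cox16, an assembly factor, Cox19, which handles copper, and Cox4i2. Cox16 was at 7.80, 7.37, 6.996 and 7.39 RPKM in untrained WT, 7.40, 7.18, 6.36 and 6.94 in trained WT, 6.71, 6.35, 6.20 and 6.24 in untrained KO and 6.48, 6.88, 7.12 and 7.32 RPKM in trained KO. Its untrained KO values lay below all untrained WT values, and its trained groups overlapped. Cox19 was at 14.98, 19.6, 14.6 and 19.0 RPKM in untrained WT, 25.7, 17.9, 17.9 and 17.98 in trained WT, 19.1, 17.2, 18.7 and 15.4 in untrained KO and 15.2, 15.4, 16.5 and 16.2 RPKM in trained KO. Trained KO lay below trained WT, where replicate 1 was far above the other 3. The differences of response were 0.21 (SE 0.09, adjusted p = 0.574) for Cox16, -0.36 (SE 0.17, adjusted p = 0.593) for Cox19 and -0.50 (SE 0.24, adjusted p = 0.593) for Cox4i2 (limma). No difference of response was called for any of the 24 genes. Without replicate 1 of trained WT the median difference of response was -0.03 against -0.02 for all genes, with 9 of 24 genes above 0. By limma 1 gene then had an unadjusted p under 0.05, against 720 of 10171 genes.

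**Figure D2:**
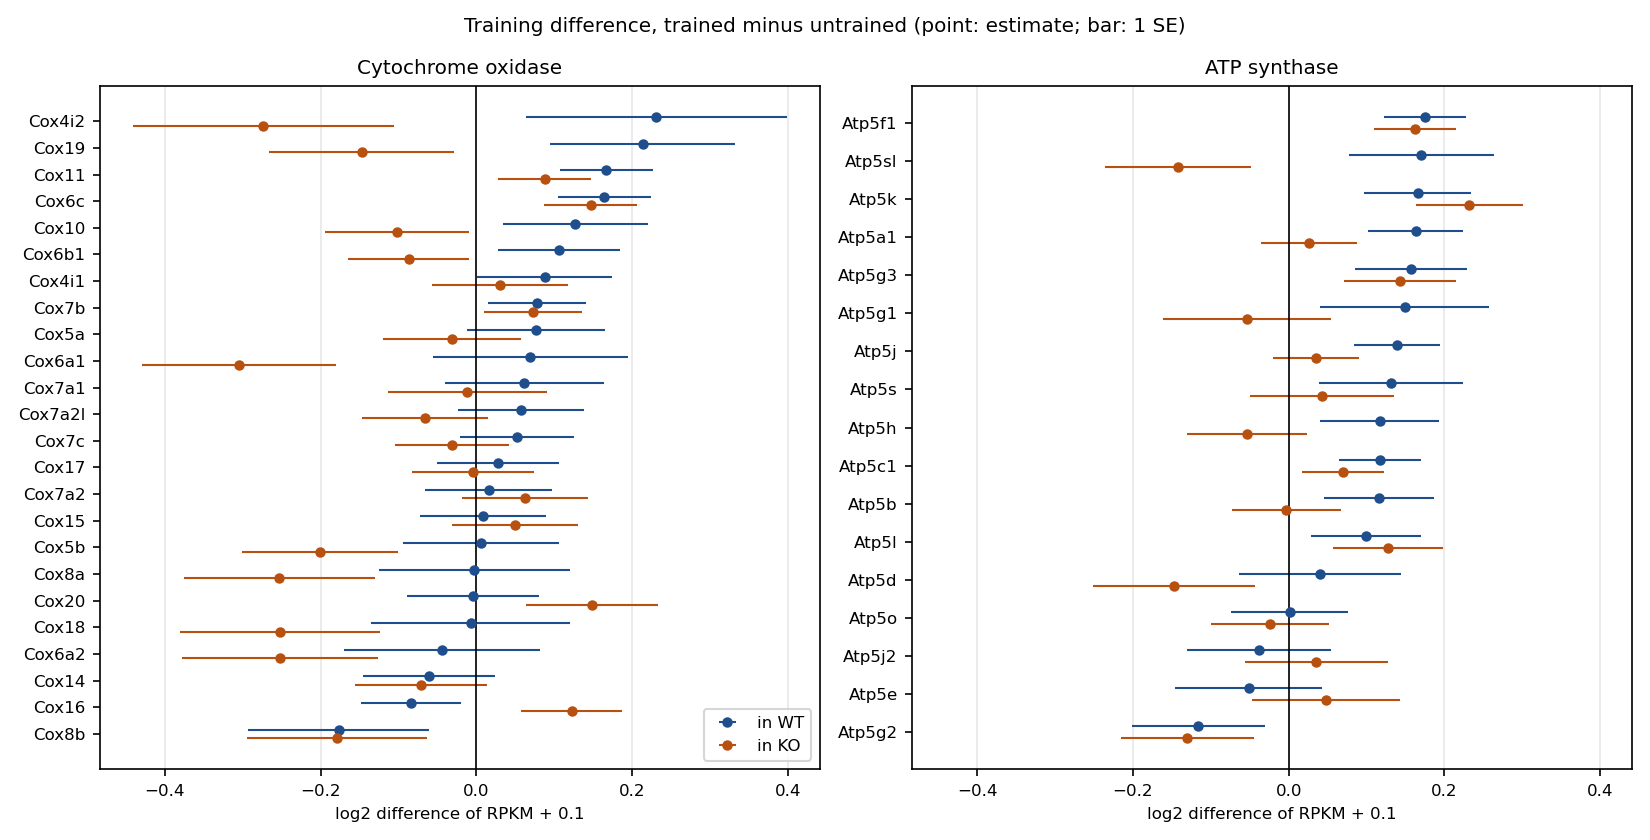
Training difference (trained minus untrained, log2 of RPKM + 0.1) of each gene in WT and in KO, as estimate with 1 SE from the limma fit, for 24 cytochrome oxidase and 17 Atp5 genes. In WT 17 of 24 and 14 of 17 points lie above 0, and in KO 8 of 24 and 10 of 17 do.

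Between untrained KO and WT muscle no cytochrome oxidase gene passed the test. Of 24 genes, 6 were higher in KO, against 51.4% of all genes, and the median was -0.08 against 0.00 for all genes. After TPM rescaling 12 of 24 were higher, with a median of 0.00 against 0.09 for all genes. Under quantile normalization 11 of 24 were higher, with a median of -0.005 against -0.006 for all genes. By limma, 0 of 24 were called, where 0.0492% of all genes were, and voom called 0. At an unadjusted p under 0.05, 1 was higher and 3 were lower, where 3.22% and 2.99% of all genes were. Cox11 lay higher without overlap, 1 of 24 against 1.58% of all genes, at 0.16 (SE 0.06, adjusted p = 0.78). Cox16 lay lower without overlap, 1 of 24 against 2.37%, at -0.21 (SE 0.06, adjusted p = 0.78) (limma). Without replicate 4 of untrained KO the median was -0.02. The summed fast fibre markers were lower in untrained KO than in untrained WT, without overlap, as were 4 of the 8 markers singly, and their part in the result was not tested.

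In trained mice nearly the whole set stood lower in KO. Of 24 genes, 23 had a negative difference, against 65.2% of all genes, and the median was -0.19 against -0.05. All 14 subunit genes were lower, with a median of -0.25, and 8 of 9 assembly factors, with a median of -0.08. With limma 0 of 24 were called, where 0.0885% of all genes were, and voom called 0. At an unadjusted p under 0.05, 12 were lower and 0 higher, where 9.65% and 4.21% of all genes were. The 4 KO libraries lay below the 4 WT libraries for 8 of 24 genes, Cox5a, Cox5b, Cox6a1, Cox6b1, Cox7a1, Cox7b, Cox7c and the copper factor Cox19, against 5.86% of all genes. They lay above for 0, against 2.63%. The summed slow fibre markers were below all trained WT libraries in 3 of 4 trained KO libraries, at 631 to 796 RPKM, and at 1403 in replicate 3. All 9 slow markers had a lower mean in trained KO and 0 of 9 did not overlap. All 6 tendon and 5 endothelium markers had a lower mean too, and all 3 red blood cell markers a higher one. For tendon and for endothelium, 3 of 4 trained KO sums were below all trained WT sums, and 1 marker did not overlap. The summed fast fibre markers overlapped, and the part of these cells in the trained KO results of either enzyme was not tested. Under quantile normalization the median was -0.08 against -0.001 for all genes. By limma 7 genes then had an unadjusted p under 0.05, against 1442 of 10171. Without replicate 1 of trained WT the median was -0.11 against -0.02, and 4 genes had an unadjusted p under 0.05, against 769 of 10171. Trained WT libraries also enter the training comparison in WT, so the 2 comparisons are not independent.

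Values by library show how far the groups were apart. Cox5b, a matrix subunit, was at 536, 644, 533 and 576 RPKM in untrained WT, 717, 549, 529 and 516 in trained WT, 546, 503, 593 and 452 in untrained KO and 463, 424, 473 and 454 RPKM in trained KO. Every trained KO library was below every library of the other groups except replicate 4 of untrained KO. Its difference in trained mice was -0.34 (SE 0.10, adjusted p = 0.204). Cox6b1, a subunit on the intermembrane side, was at 459, 557, 477 and 483 RPKM in untrained WT, 594, 504, 511 and 518 in trained WT, 483, 458, 520.0 and 415 in untrained KO and 454, 408, 445 and 455 RPKM in trained KO. Trained KO lay below trained WT throughout, while the untrained groups overlapped. Its difference was -0.27 (SE 0.08, adjusted p = 0.201). Cox5a, the other matrix subunit, was at 479, 600.5, 483 and 571 RPKM in untrained WT, 631, 559, 533 and 522 in trained WT, 497, 492, 535 and 411 in untrained KO and 477, 452, 488 and 468 RPKM in trained KO. Trained KO was below trained WT throughout, at -0.25 (SE 0.09, adjusted p = 0.252) (limma).

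Cox7b, a membrane subunit, was at 283, 302, 295 and 282 RPKM in untrained WT, 328, 309, 299 and 291 in trained WT, 272, 251, 287 and 237 in untrained KO and 289.5, 262, 282 and 266 RPKM in trained KO. Trained KO was just below trained WT, and averaged over both training states the difference was -0.16 (SE 0.04, adjusted p = 0.297), the smallest p of the set in that comparison. Cox7a1 was at 401, 520.4, 412 and 469.6 RPKM in untrained WT, 542, 442, 432 and 463 in trained WT, 440.0, 375, 452 and 337 in untrained KO and 424, 363, 391 and 404 RPKM in trained KO, and trained KO was wholly below trained WT. Cox7a2, the form of most tissues, was at 133, 166, 146.02 and 159.6 RPKM in untrained WT, 164, 149.1, 145.9 and 151 in trained WT, 142, 128, 148.1 and 116 in untrained KO and 147, 129, 142 and 139 RPKM in trained KO, with overlap. Cox7a2l, which helps join complexes III and IV, was at 83.6, 95.2, 94.3 and 104 RPKM in untrained WT, 112, 93.5, 91.8 and 95.8 in trained WT, 99.96, 86.8, 99.5 and 84.9 in untrained KO and 85.6, 84.3, 87.7 and 96.2 RPKM in trained KO, also with overlap. Averaged over both training states, 23 of 24 genes were lower in KO, against 59.6% of all genes, and the median was -0.14 against -0.02. It became -0.07 both after TPM rescaling, against 0.05 for all genes, and under quantile normalization, against -0.004. In the limma fit 0 of 24 were called, where 0.0787% of all genes were, and voom called 0. At an unadjusted p under 0.05, 11 were lower and 1 higher, Cox11, where 8.2% and 3.97% of all genes were. After TPM rescaling 7 genes had an unadjusted p under 0.05 by limma, against 1671 of 10171 genes, and under quantile normalization 4, against 1188.

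**Figure D3:**
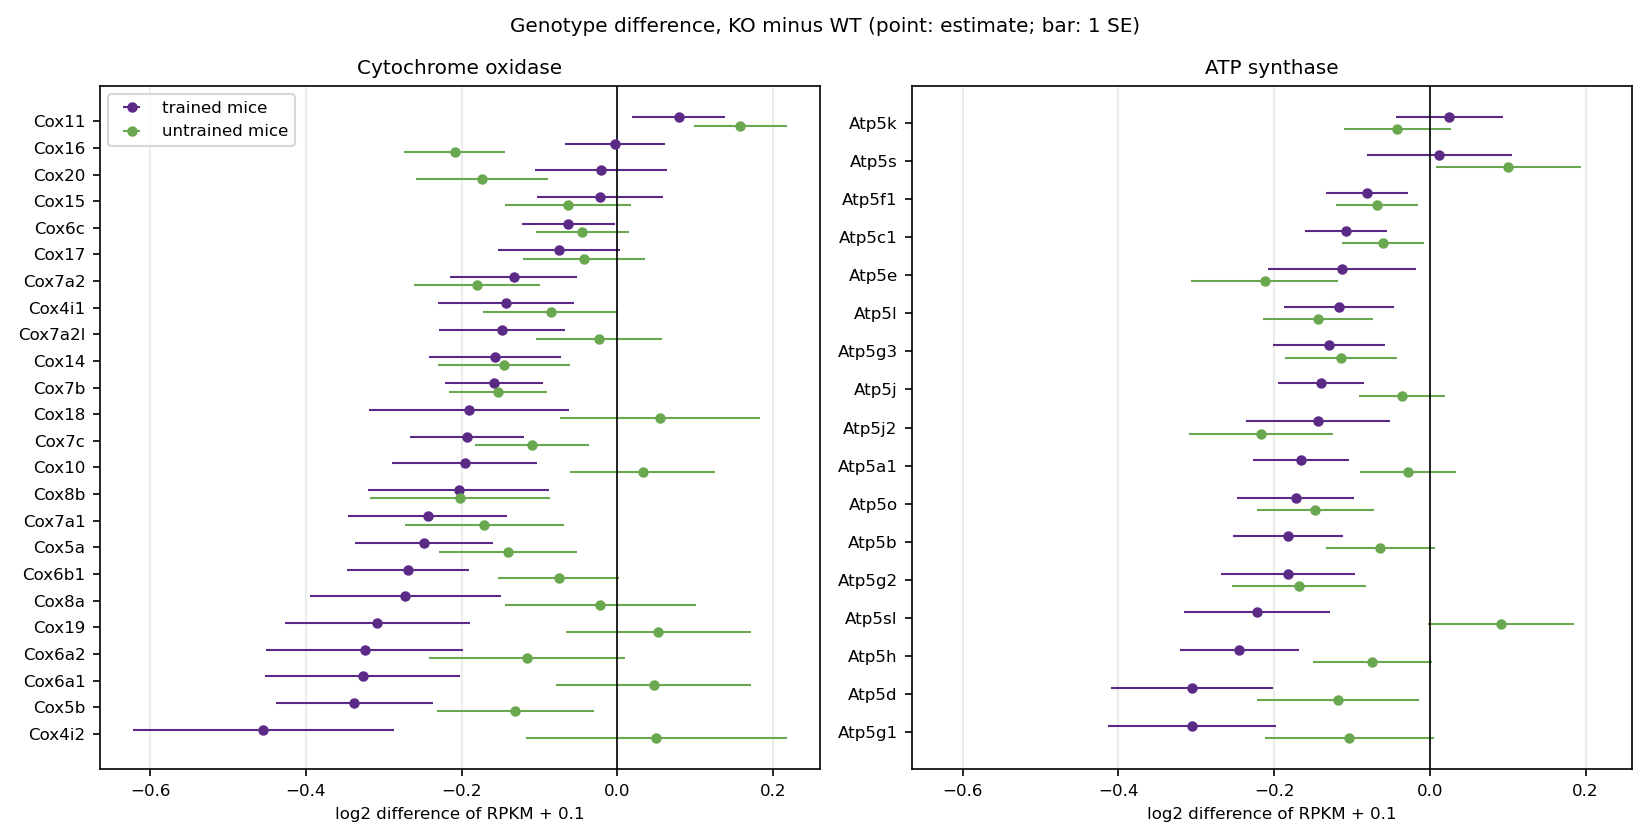
Genotype difference (KO minus WT, log2 of RPKM + 0.1) of each gene in trained and in untrained mice, as estimate with 1 SE from the limma fit. In trained mice 23 of 24 cytochrome oxidase and 15 of 17 Atp5 points lie below 0, and in untrained mice 18 of 24 and 15 of 17 do.

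ATP synthase genes were more even in level than those of cytochrome oxidase. The 15 subunit genes had mean levels from 267 RPKM for Atp5g2, one of 3 genes for the c ring, to 1311 for Atp5b, the catalytic beta subunit. Atp5a1, the alpha subunit, followed at 864 RPKM. Atp5sl was at 14.3 and Atp5s at 6.23 RPKM. Atp5b was at 1247, 1419.5, 1266 and 1317 RPKM in untrained WT, 1584, 1410.0, 1337 and 1362 in trained WT, 1304, 1267, 1350.0 and 1110.3 in untrained KO and 1329, 1182, 1239 and 1261 RPKM in trained KO. Replicate 1 of trained WT was highest and replicate 4 of untrained KO lowest, and trained KO lay below trained WT. Atp5s was at 7.20, 5.24, 5.55 and 5.42 RPKM in untrained WT, 5.57, 6.75, 6.44 and 6.80 in trained WT, 6.14, 6.31, 6.05 and 6.46 in untrained KO and 7.06, 6.24, 6.27 and 6.18 RPKM in trained KO, with overlap between all groups.

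The c ring is encoded by 3 genes that yield the same mature protein, so they are compared as shares of their summed RPKM. Their promoters are shown because the training differences of the genes had different signs. Each stretch is 120 bases from RefSeq (GRCm38.p6), minus strand, ending before both the RefSeq and the deposited start of the gene. Capitals mark full NRF1 matches and ERR matches (TCAAGGTCA), on either strand. Atp5k, the membrane subunit e, is shown with them as the ATP synthase gene with the largest training difference averaged over both genotypes. Atp5g1 lies at chr11:96075695-96075814, Atp5g2 at chr15:102671048-102671167, Atp5g3 at chr2:73911327-73911446 and Atp5k at chr5:108434400-108434519.
Atp5g1: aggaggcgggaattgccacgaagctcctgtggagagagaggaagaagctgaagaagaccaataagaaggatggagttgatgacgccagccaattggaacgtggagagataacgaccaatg
Atp5g2: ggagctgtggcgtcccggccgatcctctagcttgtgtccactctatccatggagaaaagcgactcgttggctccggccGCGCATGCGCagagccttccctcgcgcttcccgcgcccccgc
Atp5g3: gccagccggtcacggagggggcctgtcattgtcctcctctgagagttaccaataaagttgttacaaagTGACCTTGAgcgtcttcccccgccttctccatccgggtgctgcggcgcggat
Atp5k: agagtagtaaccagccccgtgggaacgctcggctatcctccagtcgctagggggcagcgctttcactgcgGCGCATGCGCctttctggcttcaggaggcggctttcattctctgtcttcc
Within these stretches, Atp5g2 and Atp5k each held a full NRF1 match, Atp5g3 an ERR match and Atp5g1 neither. RefSeq windows of 300 bases were matched for 16 of 17 Atp5 genes, and that of Atp5a1 was not used here. The full NRF1 motif was in 12.5% of the 16 windows, against 0.967% of 26991 windows of other genes, and its core in 31.2% against 4.77%. CCGGAAG was in 25% against 9.09%, AAGATGGC in 18.8% against 2.86%, GGGCGG in 37.5% against 35.9% and TCAAGGTCA in 6.25% against 0.404%.

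Atp5g3 held a larger share of the c ring transcripts in most trained libraries. Its share was 44.6%, 41.8%, 44.1% and 43.5% in untrained WT, 42.3%, 47.3%, 45.8% and 46.2% in trained WT, 43.3%, 44.0%, 43.9% and 43.9% in untrained KO and 47.9%, 47.1%, 48.5% and 47.2% in trained KO. In KO the groups did not overlap, and in WT they overlapped through replicate 1 of the trained mice. Atp5g2 took 22.2% to 23.8% in untrained WT, 18.9% to 21.2% in trained WT, 21.7% to 23.8% in untrained KO and 19.3% to 21.8% in trained KO. Its WT groups did not overlap, and in KO they overlapped through replicate 4 of the trained mice. Atp5g1 took 32.10% to 35.98%, 32.71% to 36.43%, 32.35% to 35.02% and 31.06% to 32.72% in the same order, with overlap at each training step.

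By level, Atp5g3 was at 538, 589, 537 and 550.5 RPKM in untrained WT, 672, 629, 571 and 600.4 in trained WT, 534, 497, 564 and 455 in untrained KO and 597, 516, 588 and 559 RPKM in trained KO. Trained and untrained values overlapped in both genotypes. Its training difference was 0.14 (SE 0.07, adjusted p = 0.393) in KO and 0.15 (SE 0.05, adjusted p = 0.143) over both genotypes (limma). Atp5g2 was at 280.3, 314, 290.0 and 292 RPKM in untrained WT, 337, 266, 246 and 245 in trained WT, 268, 254, 279 and 246 in untrained KO and 242, 223, 234 and 258 RPKM in trained KO. It was lower without overlap in untrained KO than in untrained WT, and its training difference was -0.12 in WT and -0.13 in KO. Atp5g1 was at 387, 507, 392 and 422 RPKM in untrained WT, 578, 435, 428 and 454 in trained WT, 433, 380.1, 441 and 335 in untrained KO and 408, 357, 392 and 368 RPKM in trained KO. Trained KO lay below trained WT, at -0.31 (SE 0.11, adjusted p = 0.249).

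**Figure D4:**
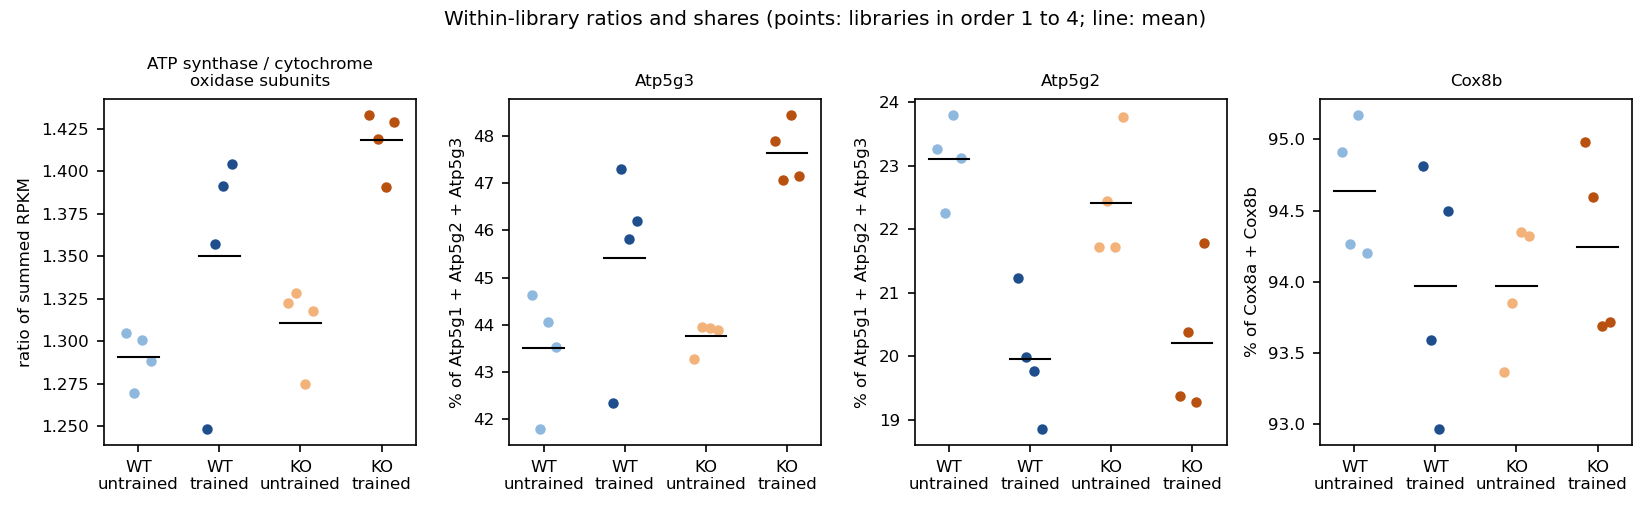
Ratio of summed ATP synthase to summed cytochrome oxidase subunit RPKM, share of Atp5g3 and of Atp5g2 in the c ring transcripts and share of Cox8b in the subunit 8 transcripts, with 1 point per library and the mean as a line. The axes do not start at 0. Trained KO points lie above untrained KO points for the ratio (1.39 to 1.43 against 1.28 to 1.33) and the Atp5g3 share (47.1% to 48.5% against 43.3% to 44.0%).

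Training in WT muscle went with slightly higher levels of most ATP synthase genes. Of 17 genes, 14 had a positive difference, against 52.4% of all genes, and the median was 0.12 against 0.01 for all genes. It stayed above 0 under every alternative run, from 0.08 without replicate 1 of trained WT (all genes -0.03) to 0.21 after TPM rescaling (all genes 0.10). By limma, 0 of 17 were called, where 0.187% of all genes were. At an unadjusted p under 0.05, 6 were higher and 0 lower, where 6.11% and 5.71% of all genes were, and voom called 0. Trained WT libraries lay above untrained WT libraries for 4 of 17 genes, Atp5a1, Atp5c1, Atp5f1 and Atp5j, against 3.76% of all genes. TPM rescaling, which divides by the sum of the listed genes, called 9 of 17, where it called 3.87% of all genes.

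Atp5f1, subunit b of the stalk that holds the catalytic head in place, was the only member that rose at the threshold. It lies at chr3:105942863-105960248 on the minus strand (mm10, GENCODE M21) and was at 269, 276, 261 and 264 RPKM in untrained WT, 301, 303, 298 and 306 in trained WT, 260.2, 249, 276 and 236 in untrained KO and 296, 269.8, 290.1 and 287 RPKM in trained KO. In WT all 4 trained libraries were above all 4 untrained, and in KO the groups overlapped through replicate 2 of the trained and replicate 3 of the untrained mice. The difference was 0.17 (SE 0.05, adjusted p = 0.164) in WT, 0.16 (SE 0.05, adjusted p = 0.257) in KO and 0.17 (SE 0.04, adjusted p = 0.0485) averaged over both genotypes, which was 1 of 17 genes where 0.777% of all genes were called (limma). Its adjusted p was over 0.05 in 14 of 16 fits that left out 1 library and in 3 of 12 other alternatives, and over all of them it ran from 0.0037 to 0.109. Without replicate 1 of trained WT, where 10.3% of all genes were called, Atp5f1, Atp5k and Atp5g2 were called at 0.17, 0.19 and -0.18 (limma adjusted p of 0.0112, 0.0242 and 0.0181). Exons of Atp5f1 overlap those of Wdr77 on the other strand, which was at 5.89 to 7.21 RPKM.

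Atp5k was at 426, 474, 425 and 437 RPKM in untrained WT, 505, 457, 508 and 506 in trained WT, 445, 417, 476 and 377 in untrained KO and 534, 480.4, 507 and 488 RPKM in trained KO. Trained KO lay wholly above untrained KO, the single ATP synthase gene higher without overlap there, and trained WT overlapped untrained WT through replicate 2 of the trained mice. Its difference was 0.23 (SE 0.07, adjusted p = 0.21) in KO and 0.20 (SE 0.05, adjusted p = 0.0601) over both genotypes (limma). Atp5a1 was at 829, 882, 816 and 842 RPKM in untrained WT, 1007, 943, 895 and 929 in trained WT, 846, 836, 892 and 736 in untrained KO and 894, 803, 846 and 822 RPKM in trained KO, and trained WT lay above untrained WT. Its difference was 0.16 (SE 0.06, adjusted p = 0.284) in WT. Atp5j, coupling factor 6 of the peripheral stalk, was at 344, 351, 364 and 356 RPKM in untrained WT, 388, 385, 387 and 398 in trained WT, 361, 335, 377 and 311 in untrained KO and 349, 352, 357 and 357 RPKM in trained KO. Trained WT was above every other library, at 0.14 (SE 0.06, adjusted p = 0.313) in WT. Among cytochrome oxidase genes, Cox6c had the smallest averaged p, at 0.16 (SE 0.04, adjusted p = 0.079), and 0 of 24 were called in that comparison, with 3 at an unadjusted p under 0.05 against 18% of all genes and 0 by voom.

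In KO muscle, 10 of 17 Atp5 genes were higher after training, against 35.1% of all genes, with a median of 0.03 against -0.06. The median became 0.10 after TPM rescaling, against 0.01 for all genes. It was 0.09 with equal medians, 0.10 under quantile normalization and 0.09 with GC correction, against 0.002, -0.001 and -0.006. With limma 0 of 17 were called, as were 0% of all genes, and 2, Atp5k and Atp5f1, had an unadjusted p under 0.05, against 4.85% of all genes higher, with 0 called by voom. Atp5k was 1 of 17 genes higher without overlap, against 4% of all genes. Without replicate 4 of untrained KO the median was -0.03. The difference between the responses was negative for 13 of 17, against 61.6% of all genes, with a median of -0.05, as for all genes. With equal medians it was 0.01, again as for all genes. In the limma fit 0 of 17 were called, as were 0% of all genes, 1 had an unadjusted p under 0.05 against 8.4%, and voom called 0. That gene was Atp5sl, which is not a core subunit. It was at 12.5, 15.2, 14.6 and 12.9 RPKM in untrained WT, 17.4, 14.4, 14.8 and 15.4 in trained WT, 15.7, 15.7, 15.7 and 11.9 in untrained KO and 13.6, 12.2, 13.8 and 13.4 RPKM in trained KO. It differed by -0.31 (SE 0.13, adjusted p = 0.55), with replicate 4 of untrained KO far below the other 3. Atp5a1 and Atp5h followed, at -0.14 and -0.17 (limma adjusted p of 0.699 for each). Without replicate 1 of trained WT the median difference of response was -0.04 against -0.02 for all genes, with 7 of 17 genes above 0. By limma 0 genes then had an unadjusted p under 0.05, against 720 of 10171 genes.

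Untrained KO muscle had lower values than WT for 15 of 17 Atp5 genes, against 48.6% of all genes. The median was -0.07 against 0.00 for all genes, 0.01 against 0.09 after TPM rescaling and 0.02 against -0.01 under quantile normalization. With 1 library left out, the median of the set ran from -0.13 to -0.03. By limma, 0 of 17 were called, where 0.0492% of all genes were, 2 were lower at an unadjusted p under 0.05 against 2.99%, and voom called 0. Atp5g2 was 1 of 17 lower without overlap, against 2.37%. The smallest p-values belonged to Atp5j2 and Atp5e. Atp5j2, membrane subunit f, was at 437, 524, 459 and 469.5 RPKM in untrained WT, 543, 445, 423 and 434 in trained WT, 441, 391, 449.8 and 349 in untrained KO and 446, 377, 417 and 427 RPKM in trained KO. Atp5e, the epsilon subunit of the central stalk, was at 512, 627, 574 and 576 RPKM in untrained WT, 653, 528, 506 and 528 in trained WT, 519, 478, 559 and 426 in untrained KO and 539.6, 453, 522 and 528 RPKM in trained KO. Both overlapped between untrained groups, and their differences were -0.22 (SE 0.09, adjusted p = 0.78) and -0.21 (SE 0.09, adjusted p = 0.78) (limma). Atp5l, membrane subunit g, was at 593, 669, 608 and 629 RPKM in untrained WT, 702, 676, 659 and 639 in trained WT, 624, 541, 617 and 488 in untrained KO and 628, 591, 627 and 621 RPKM in trained KO, and its untrained groups overlapped.

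Trained KO muscle again stood lower than trained WT, for 15 of 17 genes against 65.2% of all genes, with a median of -0.14 against -0.05. It became -0.08 against 0.01 after TPM rescaling and 0.01 against -0.001 under quantile normalization. With limma 0 of 17 were called, where 0.0885% of all genes were, 9 were lower at an unadjusted p under 0.05 against 9.65%, and voom called 0. KO libraries lay below WT libraries for 9 of 17 genes, Atp5a1, Atp5b, Atp5d, Atp5f1, Atp5g1, Atp5h, Atp5j, Atp5l and Atp5sl, against 5.86% of all genes. Of these, Atp5sl is not a core subunit. Atp5h, subunit d of the peripheral stalk, was at 344, 382, 350.3 and 361 RPKM in untrained WT, 441, 365, 366 and 391 in trained WT, 361, 323, 382 and 304 in untrained KO and 345, 311, 340.5 and 319 RPKM in trained KO. Its difference was -0.24 (SE 0.08, adjusted p = 0.213). Atp5d, the delta subunit of the central stalk, was at 265, 340.3, 281 and 296 RPKM in untrained WT, 377, 275, 275 and 294 in trained WT, 285, 266, 301 and 237 in untrained KO and 254, 219.5, 249.6 and 258 RPKM in trained KO. It differed by -0.31 (SE 0.10, adjusted p = 0.241) (limma). In both genes replicate 1 of trained WT was the highest library. Without it the median of the set was -0.10 against -0.02 for all genes. By limma 4 genes then had an unadjusted p under 0.05, against 769 of 10171. Averaged over both training states, 16 of 17 were lower, against 59.6% of all genes. The median was -0.12 against -0.02 for all genes, -0.05 against 0.05 after TPM rescaling and -0.01 against -0.004 under quantile normalization. With limma and with voom 0 were called, where limma called 0.0787% of all genes. By limma 13 had an unadjusted p under 0.05, all lower, against 8.2% of all genes that were lower. After TPM rescaling 6 did, against 1671 of 10171 genes, and under quantile normalization 3, against 1188. Atp5o, which links stalk and head, had the smallest p and was at 522, 591, 542 and 551 RPKM in untrained WT, 634, 547, 511 and 522 in trained WT, 521, 488, 536 and 451 in untrained KO and 528, 449.6, 498 and 486 RPKM in trained KO. Its averaged difference was -0.16 (SE 0.05, adjusted p = 0.32), and each pair of groups overlapped.

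Side by side, ATP synthase stood higher relative to cytochrome oxidase in most trained libraries. The ratio of summed subunit RPKM was 1.30, 1.27, 1.30 and 1.29 in untrained WT, 1.25, 1.36, 1.39 and 1.40 in trained WT, 1.32, 1.33, 1.28 and 1.32 in untrained KO and 1.43, 1.42, 1.39 and 1.43 in trained KO. In KO the groups did not overlap. In WT 3 of 4 trained libraries lay above all untrained ones and replicate 1 lay below them. As a share of the summed RPKM of all listed genes, ATP synthase subunits took 1.89% to 2.05% in untrained WT and 2.12% to 2.28% in trained WT, without overlap, and 1.81% to 2.04% and 2.00% to 2.16% in untrained and trained KO. Cytochrome oxidase subunits took 1.45% to 1.62%, 1.53% to 1.82%, 1.37% to 1.60% and 1.41% to 1.55% in the same order, with overlap at each training step. Sums follow the most abundant genes, and no test was made of them. In trained WT the summed slow fibre markers were also higher, at 1239 to 1637 RPKM against 664 to 925 RPKM untrained, and their part in the result was not tested.

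Base composition moved with some of these differences. Across the 24 cytochrome oxidase genes the training difference in KO correlated with the GC content of the transcript at r = -0.72 (rho = -0.76), across 17 Atp5 genes at -0.36 (rho = -0.41) and across 10135 genes at -0.49 (rho = -0.56). For KO against WT in trained mice r was -0.62, -0.59 and -0.37, and for training in WT 0.10, -0.22 and -0.19. Genes are not independent replicates, since all values of a comparison come from the same libraries. With each library corrected for GC content, a setting chosen after seeing the data, the medians for KO against WT in trained mice were -0.12 for cytochrome oxidase and -0.09 for ATP synthase. The median training differences were then 0.03 and 0.11 in WT and -0.02 and 0.09 in KO, and the medians for KO against WT in untrained mice -0.07 and -0.08, in the same order. The medians of the difference of responses were -0.05 and 0.00.

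**Figure D5:**
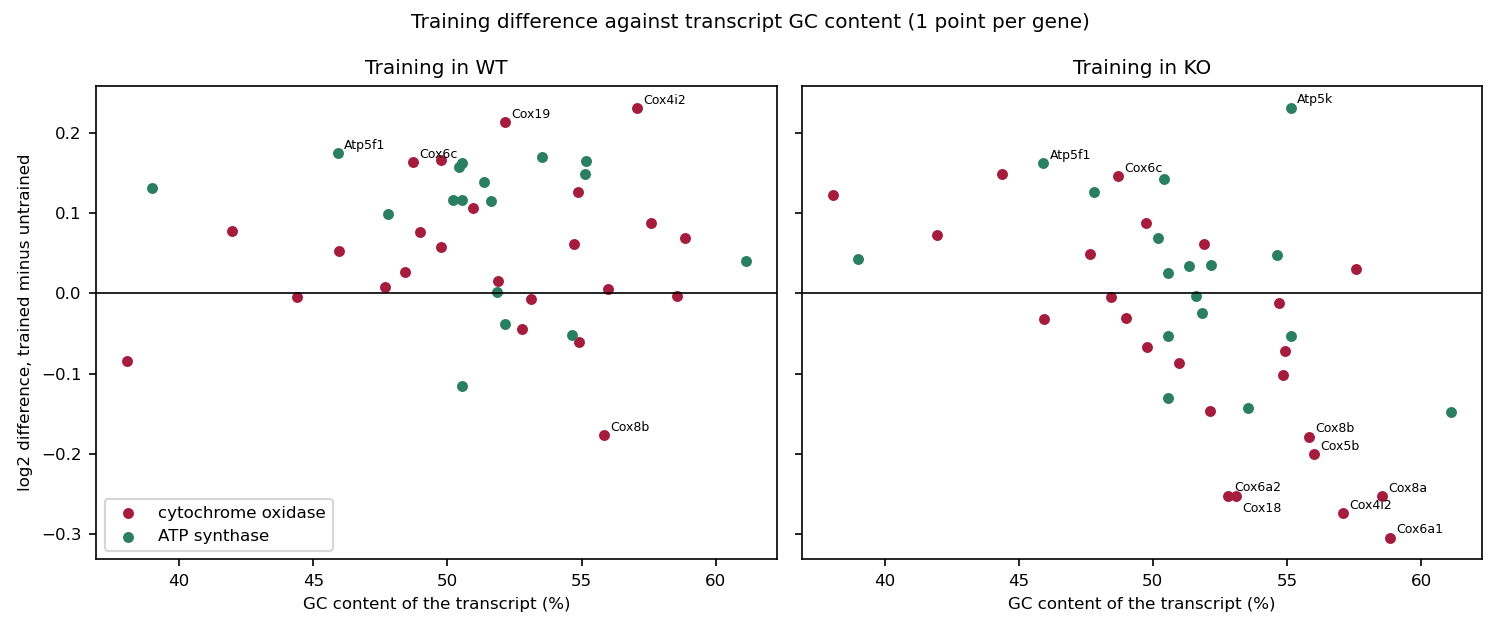
Training difference (log2 of RPKM + 0.1) of each gene against the GC content of its transcript in percent, in WT and in KO, for 24 cytochrome oxidase and 17 Atp5 genes. In KO the cytochrome oxidase genes run from higher at low GC to lower at high GC, as r of -0.72 describes, and in WT r is 0.10.

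Related genes that do not carry a Cox or Atp5 name were counted likewise. Of all genes, 52.4% were higher after training in WT and 35.1% in KO, and 0.187% and 0% were called. Of 18 tested genes for copper delivery and assembly of cytochrome oxidase, 12 were higher after training in WT and 8 in KO, and 0 were called. The smallest p-values were those of Sco1, a copper chaperone (0.32 in WT, adjusted p = 0.231), Lrpprc, which stabilises mitochondrial mRNA (0.16, adjusted p = 0.278), and in KO Oxa1l, a membrane insertase (-0.21, adjusted p = 0.268), and Higd2a (-0.19, adjusted p = 0.313; limma). Of 8 genes for other subunits, the inhibitor and assembly of the ATP synthase, 5 were higher in WT and 5 in KO and 0 were called, with Tmem70, an assembly factor, at 0.19 in both and Atpaf1, another, at 0.12 in WT. Among 15 regulators of respiratory genes, 13 were higher in WT and 8 in KO, against 52.4% and 35.1% of all genes, and 0 were called. Esrrb and Esrrg, estrogen-related receptors, differed by 0.68 and 0.39 in WT (adjusted p of 0.133 and 0.154), and Pprc1 and Tfb2m by -0.28 and 0.19 in KO (adjusted p of 0.275 and 0.305; limma).

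Other respiratory complexes stood lower in trained KO as well. Complex I genes were taken by names beginning with Nduf, assembly factors such as Ndufaf1 included. That rule also takes Ndufa4, which the list for copper delivery and assembly of cytochrome oxidase names as well. KO libraries lay below WT libraries for 21 of 45 complex I genes, 2 of 4 complex II genes and 6 of 10 genes of complex III and cytochrome c, against 5.86% of all genes, with medians of -0.17, -0.13 and -0.19. As a share of the set this was 33.3% for cytochrome oxidase and 52.9% for ATP synthase, and a difference between the complexes was not tested. Averaged over both genotypes, Cycs, cytochrome c itself, rose by 0.25, SE 0.04 (limma adjusted p = 0.0137), where 0.777% of all genes were called. It was the only gene of these lists that was called. After training in WT 31 of 45 complex I genes and 9 of 10 of complex III and cytochrome c had a positive difference, against 52.4% of all genes. In KO 16 of 45 and 3 of 10 did, against 35.1% of all genes. The smallest p-values in WT were those of Ndufaf1 (0.28) and Ndufs1 (0.16) in complex I, Sdhd (0.19) and Sdha (0.18) in complex II, and Cycs (0.23) and Uqcrc2 (0.18). In KO they were those of Ndufa12 (-0.27) and Ndufb6 (0.27), Sdhd (0.16) and Sdha (0.10), and Cycs (0.27) and Uqcr11 (-0.09).

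Reads of some members could belong to other genes. Exons of 14 of 41 members overlap exons of a gene on the other strand and those of 4 a gene on the same strand. For 14 members the transcript matches another gene at 95% identity over at least 100 bases, and none of these copies is listed in the deposited table, so how their reads were assigned cannot be seen. These include Atp5f1 and Cox6c, whose matches are pseudogenes.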

How the data were processed

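Gastrocnemius RNA of 16 mice was sequenced, 4 in each of 4 groups. The authors deposited RPKM values per gene, with mm10 as the genome build per the submitters' processing notes. Which aligner, counting program and annotation were used, and whether strand was, is not given in the sources used here. RPKM divides by gene length and library reads, so a few abundant genes can shift all others.

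Genes that reached 1 RPKM in at least 4 libraries (10171 of 23440) were fitted together on log2(RPKM + 0.1) with limma 3.58.1 (trend and robust moderation, statmod 1.5.0, R 4.3.3), 1 mean per group and 7 contrasts. Calls used a Benjamini-Hochberg adjusted p under 0.05. Whole reads were recovered from the steps between low values: 100.0% of values above 0 were whole within 0.01 read. They gave library totals of 16307025 to 20074677 reads and the input of voom, and the precision of a level follows from its reads. Python 3.11.15, pandas 2.3.3, NumPy 2.4.6 and matplotlib 3.10.9 were used. Transcripts were compared with BLAST+ 2.17.0, and GC content and overlaps came from GENCODE M21. On simulated data for training in WT (10080 genes), 4% of genes changed 1.2-fold, 76% of those changed 1.5-fold and 100% of those changed 2-fold or 3-fold were recovered, with 10 false calls among 9881 unchanged genes. The simulated counts had the same assumed dispersion, 0.01, for every gene and no shifts shared within a library.

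Members and gene lists were chosen with earlier results of these data known. Values by library are given for members that were called, the 3 with the smallest p per complex and contrast, isoform families, and the highest and lowest level. Of related lists, genes past the threshold and the 2 with the smallest p for training in each genotype are named. Alternatives were scaling, pseudocount, filter, library weights, moderation, voom, a replicate block, fits of the groups compared alone, each library left out, and a GC correction chosen after seeing the data.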

Additional observations from a re-analysis of the deposited data

Results flagged for a closer look

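In groups of 4 libraries, 12 of 208 groups of values had a highest or lowest library far from the other 3 relative to the range, and chance gives about 1 in 20. Replicate 1 of trained WT was such a library for Atp5e (653 RPKM), Cox5b (717 RPKM), Cox6b1 (594 RPKM) and Cox19 (25.7 RPKM), each time above the others, and replicate 2 of trained WT for Atp5k (457 RPKM), below them. Replicate 4 of untrained KO lay below the others for Atp5sl (11.9 RPKM), Cox20 (16.99 RPKM) and Cox10 (13.5 RPKM). Replicate 1 of untrained KO had a lower Atp5g3 share of c ring transcripts (43.3%) than the other 3. Cox6a2 in replicate 2 of untrained WT (1153 RPKM), Atp5s in replicate 1 of untrained WT (7.20 RPKM) and Atp5s in replicate 1 of trained KO (7.06 RPKM) lay above the others.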

How the results depend on the processing

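Over 29 settings the count of called members and the median difference of each enzyme moved beyond the limit used for stability in 38 cases and stayed within it in 762. For a median the limit was the SD of library medians within groups, 0.116 for cytochrome oxidase and 0.135 for ATP synthase. Most reported medians were smaller than that, so a lost or reversed direction could count as within it. An example is the cytochrome oxidase median for training in WT, from 0.06 to -0.01 with 1 library left out. For training in WT, TPM rescaling called 4 cytochrome oxidase genes (0 in the reported fit) and 9 ATP synthase genes (0), quantile normalization called 3 ATP synthase genes and library weights 1. Leaving out 1 library gave 0 to 1 cytochrome oxidase calls, the 1 being Cox8b without replicate 1 of trained WT, and 0 ATP synthase calls. For training averaged over both genotypes, cytochrome oxidase calls (0) were 3 with TPM rescaling, 1 with equal medians, 3 with quantile normalization, 3 with library weights, 2 with GC correction and 0 to 3 with 1 library left out, the 3 without replicate 1 of trained WT. ATP synthase calls (1) were 8 with TPM rescaling, 4 with equal medians, 5 with quantile normalization, 0 with no filter, 2 with a filter at 5 RPKM, 3 with library weights, 0 without trend and robust moderation, 2 with voom, 3 with GC correction and 0 to 3 with 1 library left out, the 3 again without that replicate and 2 without replicate 3 of untrained KO. The replicate block gave 0 ATP synthase calls there (Atp5f1 at an adjusted p of 0.0817) and left the other counts of calls at an adjusted p and the medians of both enzymes as they were. For the difference of responses the block moved the count at an unadjusted p under 0.05 from 4 to 1 cytochrome oxidase genes, and from 854 to 800 over all genes. For untrained KO against WT that count went from 2 to 1 ATP synthase and from 4 to 3 cytochrome oxidase genes, and from 631 to 612 over all genes. For training in WT it went from 6 to 4 ATP synthase genes (all genes 1202 to 1121). In trained KO against WT it went from 9 to 8 ATP synthase and from 12 to 11 cytochrome oxidase genes (all genes 1409 to 1314). For averaged training and averaged KO against WT, ATP synthase went from 7 to 5 (all genes 1830 to 1716) and from 13 to 11 (1238 to 1128). The labels do not say whether replicate numbers mark pairs. Deviations of same-numbered libraries correlated at -0.18 to 0.44, with 6 of 24 pairs over 0.1 and 6 of 16 libraries closest to their own number. Of these 6 pairs, 3 were among the 4 pairs of untrained and trained KO (0.05 to 0.44), whose mouse identifiers are neighbouring numbers. Whether the KO mice were paired cannot be told from these values. The ATP synthase median for KO against WT in trained mice became 0.0079 and the Atp5a1 difference of responses 0.0316 under quantile normalization. Over all genes, training in WT gave 19 calls in the reported fit, 394 with TPM rescaling, 155 with quantile normalization, 64 with voom, a count between these last with equal medians, 168 with GC correction, 329 with library weights and 272 without replicate 1 of trained WT, and training in KO gave 0, 97 with library weights and 106 without that replicate, which is not in the comparison but enters the shared spread. Training averaged over both genotypes gave 79 calls, 476 with TPM rescaling, 238 with equal medians, 252 with quantile normalization, 1152 with library weights, 122 with voom, 110 with GC correction and 1044 without replicate 1 of trained WT. The cause of the other shifts was not tested. In the simulation 4% of 1.2-fold changes were recovered, with the same assumed dispersion for every gene and no shifts shared within a library. That share cannot be carried over to the members, whose SEs differed from gene to gene. How many such differences would be missed among them was not tested.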
